A study of Mus musculus with 9 samples.

Results

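The genes described here are a neighbourhood of mouse chromosome 14: those that start between positions 47200000 and 55700000 of mm10 and have 10 or more exon counts in at least 3 of the 9 libraries. Of 48709 genes in the count tables, 453 start in this interval, 183 of them had a count in any library, and 89 met the count rule. The members were chosen by measured values: the bounds were set with the differences between Tg4-42 vehicle and WT libraries in view, and the count rule used the exon counts, so every Tg4-42 against WT value below describes the genes and tests nothing. The caffeine-treated against vehicle-treated Tg4-42 comparison was not used to set the bounds, although it shares the Tg4-42 vehicle libraries, and its tests are given.

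The libraries came from neuronal nuclei of frozen hippocampi, sorted by staining for the neuronal nuclear protein NeuN, in 3 groups of 3. WT mice were C57BL/6J animals on tap water. Tg4-42 mice carry a construct in which the murine Thy1 promoter, active in neurons, drives human Aβ4-42 fused to the signal peptide of murine thyrotropin-releasing hormone, were kept homozygous on C57BL/6J, and received either tap water as vehicle or caffeine at 0.3 g/l in the drinking water. Treatment began at 2 months of age and lasted 4 months, so that all mice were 6 months old at the end; the study used both sexes. Its methods describe whole frozen hippocampi for Tg4-42 males, and no label gives the sex of a library. The Y-linked gene Ddx3y lay at 108 to 157 CPM and Xist, the RNA of the inactive X chromosome, at 0.482 to 2.23 CPM over all 9 libraries, the levels of males. The sources name C57BL/6J mice of a supplier as the WT controls of a line bred as homozygotes, so the transgene and the breeding line cannot be told apart in a Tg4-42 against WT difference.

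This stretch of chromosome holds very different kinds of genes side by side. Large tandem families lie in it, among them the T cell receptor alpha and delta segments, olfactory and vomeronasal receptors and secreted ribonucleases, whose members are used in lymphocytes, sensory epithelia or other specialised cells. Between them lie widely used genes for proteasome subunits, chromatin proteins, RNA modification and intracellular transport, along with genes used by neurons. In the mouse genome many such genes are arranged head to head, with starts close together on opposite strands, and share the DNA between them as promoter.

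The families contributed little. Of the 364 genes of the interval that were not members, 270 had no count in any library. The 200 T cell receptor segments among them summed to 124 counts over all libraries, the 38 olfactory receptor genes to 1 count, and the 17 secreted ribonucleases to 135 counts. The widest gap between starts of successive members, 1.92 Mb between Sall2 and Dad1, held 234 of these genes.

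Of the 89 members, 84 are annotated as protein-coding, 43 lie on the plus strand and 46 on the minus strand. The count rule was met in all 9 libraries by 76 members and in both genotypes, but not in every library, by 6 more. Another 5 members (Ccnb1ip1, Ajuba, Psmb11, Gm8865 and Ppp1r3e) met it only through Tg4-42 libraries and 2 (Gm43305 and Rec8) only through WT libraries. With their low counts in the other genotype, these 7 are members only through the genotype where they were higher. Their differences between the genotypes therefore test nothing. Exons of 39 members overlap exons of another gene, and whether the counting used strand is not given in the sources used here.

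Levels are CPM, counts scaled to the library total after adjustment by the trimmed mean of M values. Fold changes are log2 values from a quasi-likelihood fit of edgeR over all 9 libraries and 17361 tested genes, which included all 89 members, and a gene is called at a Benjamini-Hochberg adjusted p under 0.05 over all tested genes. Library totals ran from 9342945 to 16376922 counts, so that 3 counts, the limit set by a count of 0 in a single library, equal 0.19 to 0.325 CPM. The labels speak of 6 animals per group for the isolation of nuclei and the study's methods of 3, so whether a library is 1 animal or a pool is not settled, and p-values measure only the spread between these samples. In sorted nuclei, fewer cells of a type and less RNA per cell cannot be told apart.

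The labelled cell type was checked by markers. The 6 neuronal markers (Rbfox3, Snap25, Syt1, Slc17a7, Gad1 and Gad2) summed to 6935 to 7365 CPM in WT, 6651 to 8321 in Tg4-42 vehicle and 5647 to 6741 in Tg4-42 caffeine libraries. Markers of oligodendrocytes summed to 253 to 508 CPM, of astrocytes to 230 to 365 and of microglia to 17.4 to 31.6 over all libraries, with every marker of these lists detected. The construct's parts separated the genotypes: Thy1 lay at 82.1 to 88.8 CPM in WT, 461 to 639 in Tg4-42 vehicle and 509 to 670 in Tg4-42 caffeine libraries, and Trh, the gene of thyrotropin-releasing hormone, at 1.81 to 4.39, 51.3 to 64.7 and 48.0 to 59.7 CPM.

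For some members described below, including Wdhd1, which was called in no comparison, and leaving out several called genes, promoter windows are shown first. Each is 300 bases around the RefSeq start (GRCm38.p6), most of them before it, written 5′ to 3′ on the strand of the named gene, with GC boxes (GGGCGG or its reverse complement CCGCCC) in capitals. The Wdhd1 window (chr14:47276808-47277107, minus strand) also holds the start of Socs4, and the Parp2 window (chr14:50807666-50807965, plus strand) that of Ccnb1ip1. The Mapk1ip1l window lies at chr14:47298024-47298323 (plus strand), the Supt16 window at chr14:52197190-52197489 (minus strand) and the Psmb5 window at chr14:54617946-54618245 (minus strand).
Wdhd1: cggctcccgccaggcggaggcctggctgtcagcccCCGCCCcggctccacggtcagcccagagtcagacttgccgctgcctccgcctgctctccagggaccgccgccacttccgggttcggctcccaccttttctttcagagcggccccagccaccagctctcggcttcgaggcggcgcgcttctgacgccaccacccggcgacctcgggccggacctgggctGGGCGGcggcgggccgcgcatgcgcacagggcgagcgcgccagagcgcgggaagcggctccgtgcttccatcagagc
Mapk1ip1l: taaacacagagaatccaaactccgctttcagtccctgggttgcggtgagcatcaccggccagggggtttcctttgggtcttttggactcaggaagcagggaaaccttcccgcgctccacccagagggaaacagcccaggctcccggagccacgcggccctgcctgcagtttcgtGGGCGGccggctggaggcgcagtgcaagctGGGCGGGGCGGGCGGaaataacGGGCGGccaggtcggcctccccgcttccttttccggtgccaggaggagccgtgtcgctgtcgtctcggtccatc
Parp2: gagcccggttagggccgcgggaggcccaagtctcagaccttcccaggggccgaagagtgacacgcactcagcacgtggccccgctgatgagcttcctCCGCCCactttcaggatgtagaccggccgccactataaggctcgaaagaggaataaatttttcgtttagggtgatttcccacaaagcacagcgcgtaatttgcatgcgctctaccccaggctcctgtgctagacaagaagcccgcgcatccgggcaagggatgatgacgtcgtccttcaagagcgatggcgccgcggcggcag
Supt16: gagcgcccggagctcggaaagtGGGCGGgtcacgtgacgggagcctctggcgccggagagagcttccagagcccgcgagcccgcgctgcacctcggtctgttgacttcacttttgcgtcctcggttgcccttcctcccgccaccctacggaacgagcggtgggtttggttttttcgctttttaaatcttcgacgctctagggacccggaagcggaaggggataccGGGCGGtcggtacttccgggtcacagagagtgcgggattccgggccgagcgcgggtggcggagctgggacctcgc
Psmb5: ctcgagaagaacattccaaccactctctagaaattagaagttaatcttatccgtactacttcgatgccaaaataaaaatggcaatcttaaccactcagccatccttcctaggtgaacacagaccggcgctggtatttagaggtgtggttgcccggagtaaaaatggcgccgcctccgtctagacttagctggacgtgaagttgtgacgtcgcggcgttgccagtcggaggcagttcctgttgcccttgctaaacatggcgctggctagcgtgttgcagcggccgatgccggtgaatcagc

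A GC box is the letter pattern bound by Sp-family factors, and CpG-rich starts are typical of widely used genes. The counts of GC boxes were 2 for Wdhd1, 5 for Mapk1ip1l (3 of them in the overlapping run), 1 for Parp2, 2 for Supt16 and 0 for Psmb5. Of the 82 members with an entry in the RefSeq table, 43 (52.4%) had a GC box against 35.7% of all 32851 promoters of that table. The median number of CpG dinucleotides in the window was 16 over the members and 7 over all promoters. The E box CACGTG stood in 11.0% of members against 7.15% of promoters, the CCAAT box (CCAAT or ATTGG) in 42.7% against 37.4%, and TATAAA or TTTATA in 9.76% against 13.6%. A member counted if any of its windows in that table matched, while the shares of all promoters count each window by itself. The members also met a count rule that the promoters of the table did not have to meet, so the shares are not like for like. These are matches of letters on both strands of a window, not sites.

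Genes higher and genes lower than WT lay close together in the interval. In Tg4-42 vehicle against WT vehicle libraries, 10 members were called, 4 higher (Ccnb1ip1, Supt16, Cdh24 and Gm8865) and 6 lower (Mapk1ip1l, Gm26782, Slc39a2, Gm43305, Psmb5 and Rec8), beside 0.0979% of all tested genes (0.0576% higher and 0.0403% lower). In Tg4-42 caffeine against WT vehicle libraries, which uses the same WT libraries, 15 were called beside 0.415% of all tested genes (0.144% higher and 0.271% lower): those 10, with Ap5m1 lower and Parp2, Rem2, Haus4 and Jph4 higher. Those 5 calls were all lost without Tg4-42 caffeine replicate 3, which left 7, and the count was 9 without WT replicate 2 or without WT replicate 3 and 26 with no filter on low counts. The rule used the first of these contrasts and the second shares its controls, so nothing is read from these counts.

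**Figure D1:**
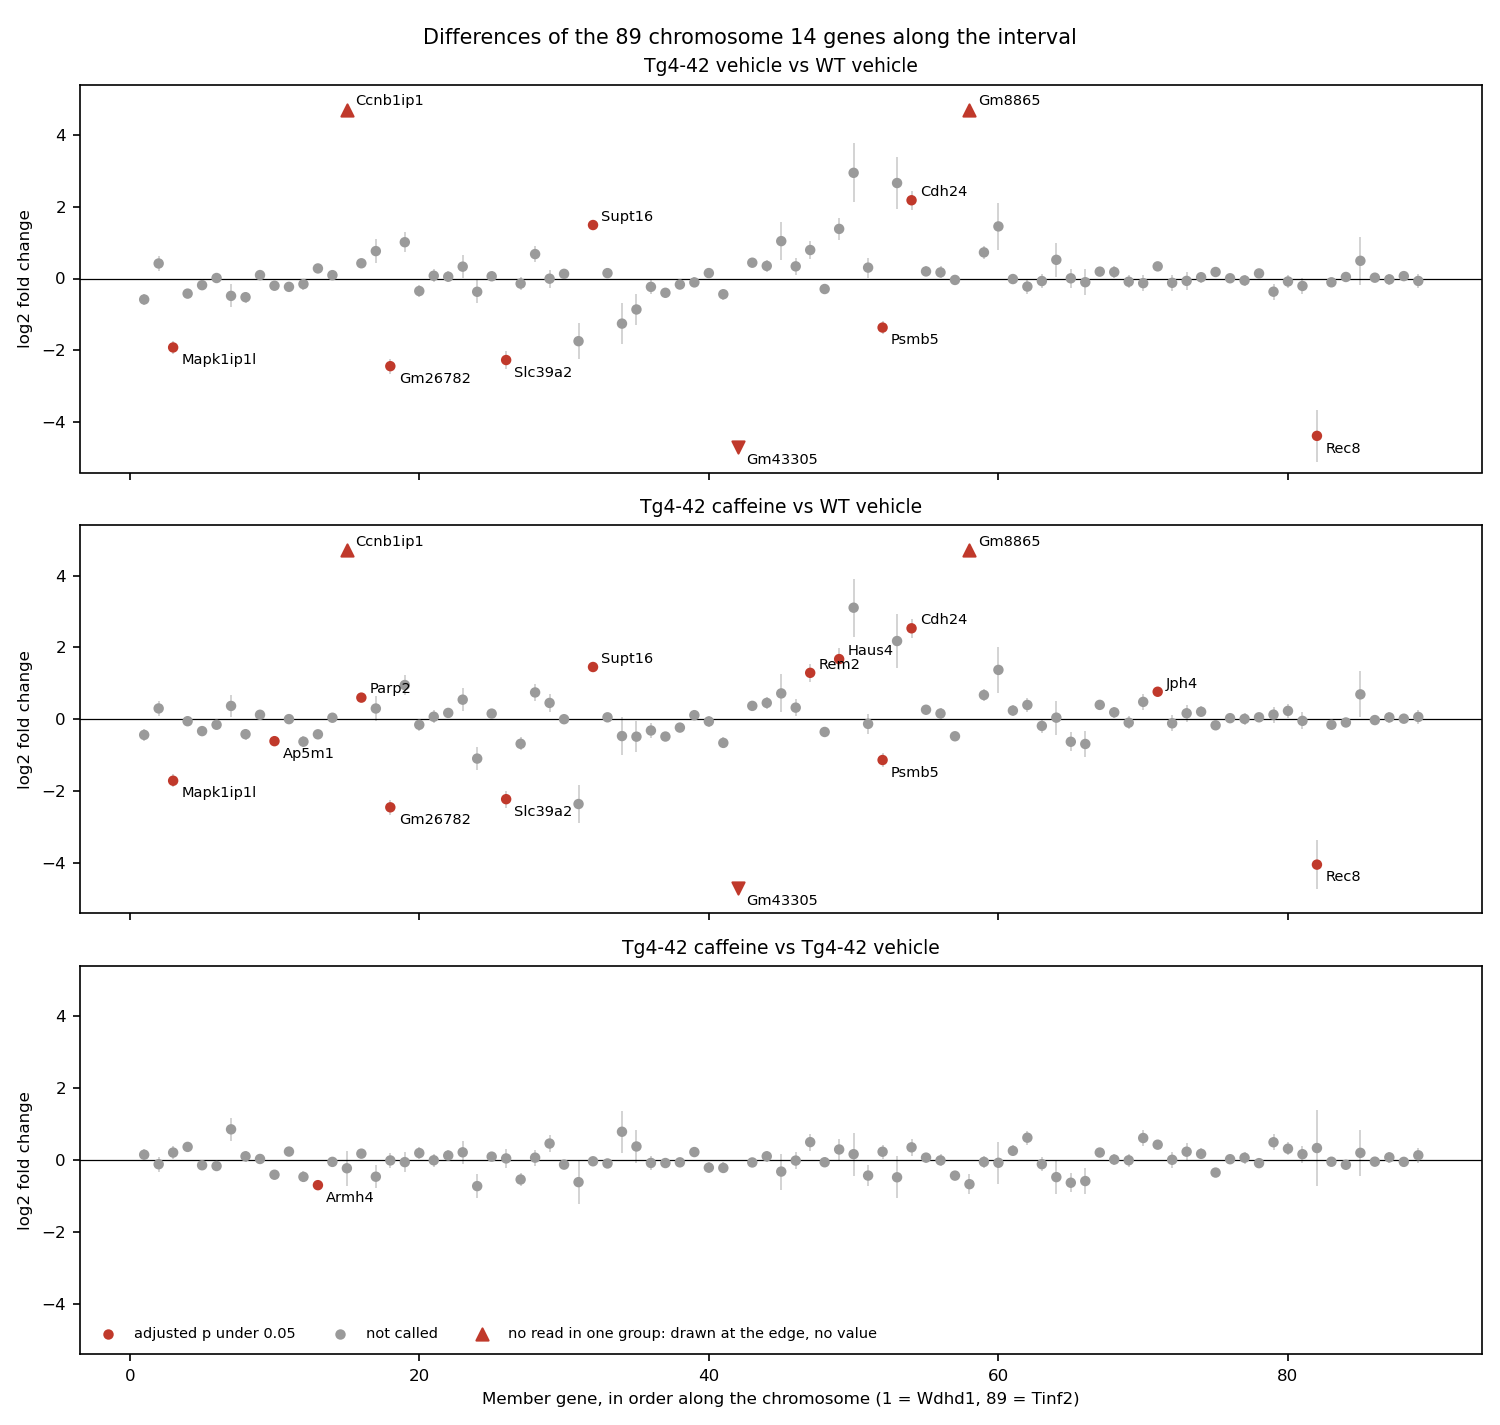
Log2 fold change (points) with its standard error (bars) of each of the 89 genes in chromosomal order, for 3 comparisons; red marks an adjusted p under 0.05, and triangles at the edge mark genes without a read in 1 of the groups, which have no value. Red points of both signs lie among grey points in the 2 comparisons with WT, some of them beside other genes far from 0 such as Rpgrip1 and Psmb11, and in the comparison of caffeine with vehicle Armh4 is the only red point.

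Higher and lower genes were close to balanced. Of the 89 log2 fold changes of Tg4-42 vehicle against WT, 46 were positive and 43 negative, with a median of 0.01 against 0.00 over all tested genes. The median absolute log2 fold change was 0.23 for the members, 0.12 for the rest of chromosome 14 and 0.12 for other chromosomes. A 2-fold or larger difference was found in 18 members (20.2%), 10 higher and 8 lower, beside 1.28% of all tested genes.

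The 3 Tg4-42 vehicle libraries all lay above or all below the 3 WT libraries in 35 members, 20 higher and 15 lower, beside 6.73% of all tested genes (3.57% higher and 3.16% lower). In caffeine against WT libraries the groups did not overlap in 40 members, 19 higher and 21 lower, beside 18.8% of all tested genes (9.14% higher and 9.67% lower), and 17 members differed by 2-fold or more, beside 2.82%. For 27 members all 6 Tg4-42 libraries, vehicle and caffeine, lay on the same side of the 3 WT libraries, 15 above and 12 below, beside 1.83% of all tested genes. On the rest of chromosome 14 that was so for 12 of 438 tested genes. In the 5 Mb before the interval it was 2 of 16 genes, with a median absolute log2 fold change of 0.12 in Tg4-42 vehicle against WT, and in the 5 Mb after it 3 of 44 genes, with 0.15.

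**Figure D2:**
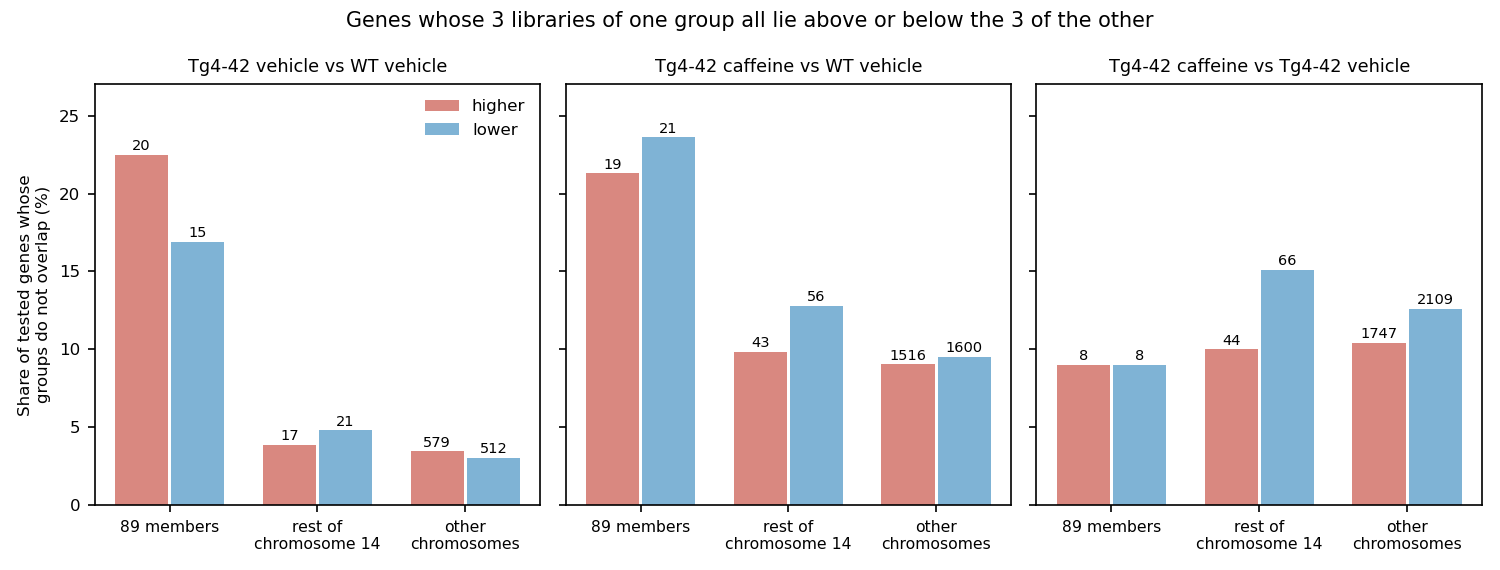
Share of tested genes (percent, bars from 0) whose 3 libraries of the first group all lie above (red) or all below (blue) the 3 of the second, for the 89 members, the rest of chromosome 14 (438 genes) and other chromosomes (16781 genes); numbers over the bars are genes. Against WT the members' bars are the tallest of each panel, as the choice of the interval fixes for the first, and in the comparison of caffeine with vehicle the members' bars, 8 genes each, are the lowest.

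The genes on either side of each bound show what the rule kept. Wdhd1, the first member, lay at 28.5 ± 2.83 CPM in WT and 19.0 ± 1.47 in Tg4-42 vehicle libraries (SD, n = 3), and Samd4, the nearest gene before the interval that met the count rule, at 5.26 ± 1.38 and 6.31 ± 1.58 (SD, n = 3). Tinf2, a shelterin subunit at telomeres and the last member, lay at 20.6 ± 4.75 and 19.5 ± 2.80 (SD, n = 3), and Rabggta, the nearest after the interval, at 90.0 ± 9.10 and 85.1 ± 0.792 (SD, n = 3). The count rule was met in exactly 3 libraries by Gm43305, Rec8 and Tssk4 and missed by 1 library by Otx2, Slc7a7 and Myh6; Slc7a7 had 9, 12 and 11 counts in WT against 3 to 7 counts in Tg4-42 vehicle and 1 to 5 in Tg4-42 caffeine libraries.

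The differences were not spread evenly. The first 13 members, Wdhd1 to Armh4, span 2.44 Mb and held 3 genes with all 6 Tg4-42 libraries on the same side of WT. The next 26, Ttc5 to Sall2, span 1.55 Mb and held 10, and the 20 from Dad1 to Homez, in 0.617 Mb, held 12. The last 30 members, Ppp1r3e to Tinf2, span 0.802 Mb and held 2, Jph4 and Rec8. Over all tested genes the share was 1.83%, and the interval was chosen with such differences in view, so these counts test nothing. The median absolute log2 fold change of Tg4-42 vehicle against WT was 0.28, 0.36, 0.58 and 0.10 in these stretches, whose bounds were placed after the values were seen.

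Genes above and below WT were interleaved in short runs. Walking along the 27 genes with all 6 Tg4-42 libraries on the same side of WT, the side changed at 12 of the 26 steps from such a gene to the next and stayed the same at the others. From Tox4 to Homez the order was 4 such genes below WT (Tox4, Mettl3, Abhd4 and Gm43305), 5 above (Oxa1l, Mrpl52, Rem2, Haus4 and Ajuba), Psmb5 below, and 4 above (Psmb11, Cdh24, Gm8865 and Homez), with members that overlapped WT between them.

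Among genes of chromatin and DNA, Supt16, a subunit of the FACT histone chaperone (chr14:52160414-52197416, ENSMUSG00000035726), was the most abundant called gene that stood above WT by 2-fold or more. It lay at 31.9, 26.7 and 23.4 CPM in WT, 79.9, 75.1 and 74.8 in Tg4-42 vehicle and 81.9, 69.3 and 73.3 in Tg4-42 caffeine libraries. Every Tg4-42 library was above every WT library, and the 2 Tg4-42 groups overlapped. The log2 fold change against WT was 1.49 ± 0.13 (SE) with vehicle and 1.46 ± 0.13 with caffeine, or 2.81-fold and 2.74-fold. Exons of Supt16 share 1057 bases with exons of Rpgrip1, a ciliary protein gene on the opposite strand, which went the other way: 2.20, 1.90 and 1.62 CPM in WT against 0.541, 0.642 and 0.482 in Tg4-42 vehicle and 0.0735, 0.691 and 0.308 in Tg4-42 caffeine libraries.

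Ccnb1ip1 and Rec8 are known from meiosis, the former as a ubiquitin ligase of crossover sites and the latter as a cohesin subunit, and both were at trace levels here. Ccnb1ip1 (chr14:50789248-50807732, ENSMUSG00000071470) had 0 counts in all WT libraries, which allows up to 0.0681 CPM over the group. It lay at 1.41, 1.48 and 1.45 CPM in Tg4-42 vehicle and at 1.84, 1.38 and 0.461 CPM in Tg4-42 caffeine libraries. Against a floor of 3 counts over the WT group it was at least 21.3-fold higher with vehicle and at least 18.2-fold higher with caffeine. These bounds pool the libraries of each group and leave out the spread between them, as do those of Gm43305 and Gm8865 below. Exons of Ccnb1ip1 share 233 bases with those of Rpph1, the RNA of ribonuclease P, on the same strand.

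Rec8 (chr14:55618037-55625395, ENSMUSG00000002324) stood below WT instead. It lay at 4.39, 2.72 and 1.75 CPM in WT, at 0, 0.193 and 0.161 in Tg4-42 vehicle and at 0.0735, 0.415 and 0 in Tg4-42 caffeine libraries. The 126 counts of the WT group stood against 5 and 7 counts in the Tg4-42 groups, with no overlap. The neighbours of Rec8 overlapped WT: Irf9, an interferon-response factor, had log2 fold changes of -0.21 with vehicle and -0.04 with caffeine against WT, and Ipo4, a nuclear import receptor, of -0.11 and -0.15.

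Parp2, a poly(ADP-ribose) polymerase of DNA repair (chr14:50807841-50821301, ENSMUSG00000036023), lay at 70.6, 61.7 and 68.4 CPM in WT, 84.4, 93.4 and 91.2 in Tg4-42 vehicle and 101, 104 and 99.2 in Tg4-42 caffeine libraries. The 3 groups did not overlap. Caffeine against vehicle gave a log2 fold change of 0.18 ± 0.11 (SE; edgeR adjusted p = 0.44). Haus4, a subunit of the augmin complex of the spindle, lay at 2.35, 3.66 and 1.49 CPM in WT, 7.58, 7.12 and 4.98 in Tg4-42 vehicle and 6.76, 8.57 and 8.76 in Tg4-42 caffeine libraries, where again no Tg4-42 library reached down to WT. Ajuba, a LIM-domain scaffold, had 5 counts in the WT group against 36 and 43 in the Tg4-42 groups.

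The list of 20 chromatin, transcription and DNA repair members counted 12 positive and 8 negative log2 fold changes in Tg4-42 vehicle against WT. The median was 0.12 against 0.00 over all tested genes. The list held 3 calls (Supt16 and Ccnb1ip1 higher, Rec8 lower), beside 0.0979% of all tested genes. Ccnb1ip1 and Rec8 met the count rule only through the genotype where each was higher, so their calls test nothing. Homez, a homeobox gene, lay at 13.9 ± 0.754 CPM in WT, 23.0 ± 4.11 in Tg4-42 vehicle and 22.3 ± 3.47 in Tg4-42 caffeine libraries (SD, n = 3). Chd8, the most abundant member of the list and a chromatin remodeller, lay at 95.2 to 114, 99.5 to 130 and 97.8 to 121 CPM, and the groups overlapped.

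Of the proteasome, ubiquitin and NEDD8 genes, Psmb5 was the only call, below WT, and its neighbour Psmb11 stood above WT. Psmb5 encodes the β5 subunit, the chymotrypsin-like protease of the proteasome core (chr14:54614119-54618022, ENSMUSG00000022193). It lay at 24.0, 34.1 and 23.7 CPM in WT, 10.7, 8.98 and 12.1 in Tg4-42 vehicle and 13.2, 11.6 and 12.5 in Tg4-42 caffeine libraries. Each Tg4-42 library was below each WT library, and the log2 fold change was -1.37 ± 0.19 with vehicle and -1.13 ± 0.18 with caffeine (SE), 2.58-fold and 2.19-fold lower. Its promoter window above holds no GC box.

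Psmb11, the thymus form of the same subunit, had 7 counts in the WT group, 38 in Tg4-42 vehicle and 31 in Tg4-42 caffeine. The ratio to WT was 6.41 with vehicle (95% counting interval 2.83 to 17.0) and 4.75 with caffeine (2.05 to 12.8). The interval covers counting error only. Psmb11 met the count rule only through Tg4-42 libraries, where it was higher, so the interval tests nothing. Of the proteasome activators of the interval, Psme1 overlapped between all groups and lay at 23.7 ± 3.83, 22.8 ± 1.94 and 23.8 ± 2.71 CPM in WT, Tg4-42 vehicle and Tg4-42 caffeine libraries (SD, n = 3). Nedd8, the ubiquitin-like modifier of cullins, lay at 67.6 ± 13.2, 66.6 ± 10.3 and 70.2 ± 5.23 CPM (SD, n = 3).

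The whole list of 11 such members had 3 positive and 8 negative log2 fold changes in Tg4-42 vehicle against WT and a median of -0.08. It also holds Wdhd1, better known for DNA replication. Klhl33, a Kelch-family gene, lay at 2.61 ± 0.512 CPM in WT, 5.25 ± 1.14 in Tg4-42 vehicle and 5.05 ± 1.29 in Tg4-42 caffeine libraries (SD, n = 3), with all 6 Tg4-42 libraries above WT. Fbxo34, an F-box gene, lay below WT with vehicle but not with caffeine, at 66.5 ± 6.01, 49.7 ± 2.81 and 64.1 ± 7.65 CPM (SD, n = 3).

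Genes of neurons and signalling included the called Cdh24 and Mapk1ip1l. Cdh24, a type II cadherin of cell contacts (chr14:54631231-54641364, ENSMUSG00000059674), lay at 1.57, 1.45 and 1.55 CPM in WT, 7.14, 6.74 and 6.91 in Tg4-42 vehicle and 6.32, 9.33 and 10.9 in Tg4-42 caffeine libraries. The WT libraries were tightly grouped and far below every Tg4-42 library. The log2 fold change was 2.18 ± 0.26 with vehicle and 2.53 ± 0.26 with caffeine (SE), 4.52-fold and 5.79-fold higher.

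Mapk1ip1l (chr14:47298266-47323204, ENSMUSG00000021840), whose window above holds 5 GC boxes, lay at 20.4, 19.3 and 19.98 CPM in WT, 5.19, 4.94 and 5.62 in Tg4-42 vehicle and 6.62, 6.499 and 5.07 in Tg4-42 caffeine libraries. All Tg4-42 libraries were below all WT libraries. The log2 fold change was -1.92 ± 0.19 with vehicle and -1.71 ± 0.18 with caffeine (SE), 3.78-fold and 3.27-fold lower. Its neighbours on the chromosome differed by less: Socs4 had 0.42 ± 0.20 and Fbxo34 -0.42 ± 0.13 with vehicle against WT (log2 fold change ± SE).

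Rem2, a small GTPase that inhibits voltage-gated calcium channels, lay at 10.7, 16.2 and 12.4 CPM in WT, 20.02, 31.4 and 16.7 in Tg4-42 vehicle and 24.0, 39.1 and 33.7 in Tg4-42 caffeine libraries. Both Tg4-42 groups stood above WT and overlapped each other. Jph4, a junctophilin that holds the endoplasmic reticulum at the plasma membrane of neurons, lay at 75.1, 86.5 and 77.3 CPM in WT, 89.6, 117 and 94.9 in Tg4-42 vehicle and 129, 130 and 147 in Tg4-42 caffeine libraries. Here the 3 groups did not overlap, and caffeine against vehicle gave 0.43 ± 0.13 (log2 fold change ± SE; edgeR adjusted p = 0.11), which did not pass the threshold.

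The most abundant member per length, Cpne6, a calcium-binding copine of neurons, had a mean of 260 CPM per kilobase of exon. It lay at 920 to 1173 CPM in WT, 887 to 1215 in Tg4-42 vehicle and 1054 to 1363 in Tg4-42 caffeine libraries, and the groups overlapped. Slc22a17, a receptor for the iron-carrying lipocalin, followed with 192 CPM per kilobase, Pabpn1, the nuclear poly(A)-binding protein, with 79.9, Nedd8 with 54.0 and Mdp1, a phosphatase, with 39.4. None of these 5 had non-overlapping WT and Tg4-42 vehicle libraries. Over the 14 neuronal, synaptic and signalling members the log2 fold changes with vehicle against WT were 9 positive and 5 negative with a median of 0.19.

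Of the membrane transport and trafficking genes, Slc39a2 stood apart. This ZIP-family zinc importer (chr14:51892889-51896745, ENSMUSG00000072572) lay at 17.3, 14.7 and 19.1 CPM in WT, 4.00, 4.17 and 2.41 in Tg4-42 vehicle and 3.38, 3.18 and 4.38 in Tg4-42 caffeine libraries. Every Tg4-42 library was below every WT library, 4.82-fold in the mean with vehicle and 4.67-fold with caffeine. Its exons share 151 bases with those of Mettl17, on the same strand, which lay at 124 to 158 CPM in WT, 131 to 151 in Tg4-42 vehicle and 130 to 170 in Tg4-42 caffeine libraries.

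Ap5m1, the medium subunit of the adaptor complex AP-5, lay at 82.8, 64.1 and 77 CPM in WT, 64.7, 61.5 and 68.5 in Tg4-42 vehicle and 51.4, 47.2 and 48.2 in Tg4-42 caffeine libraries. The vehicle libraries of both genotypes overlapped, and the caffeine libraries lay below both. The list of 18 transport members had 8 positive and 10 negative log2 fold changes with vehicle against WT and a median of -0.06. The lists of 7 RNA processing members (median -0.09) and 7 mitochondrial and metabolic members (median 0.02) held no call by edgeR in either comparison with WT. At an unadjusted p under 0.05, each list held 1 member in both comparisons, Prmt5 and Oxa1l. The share over all tested genes was 2.74% with vehicle and 15.4% with caffeine, and DESeq2 called Oxa1l in caffeine against WT libraries. Oxa1l, which inserts proteins into the inner mitochondrial membrane, lay at 39.7, 41.6 and 39.6 CPM in WT, 52.4, 57.4 and 54.1 in Tg4-42 vehicle and 52.5, 52.3 and 51.9 in Tg4-42 caffeine libraries, with no overlap between the genotypes. The mitochondrial list does not hold every such gene. Mrpl52, a mitochondrial ribosomal protein gene in no list, also lay above WT in all 6 Tg4-42 libraries. Its unadjusted p was under 0.05 in both comparisons with WT. The mitochondrial and metabolic list also holds Dcaf11, a ubiquitin ligase factor. The RNA processing list also holds Thtpa, a thiamine triphosphatase, named here only for that. The medians therefore describe the lists and not strictly the classes.

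The 10 members outside the role lists include 3 called noncoding or pseudogene entries. Gm26782 (chr14:50870324-50880603, ENSMUSG00000097431), annotated as an antisense transcript, lay at 25.7, 20.7 and 23.0 CPM in WT, 4.33, 4.17 and 4.26 in Tg4-42 vehicle and 3.31, 5.32 and 4.00 in Tg4-42 caffeine libraries, 5.43-fold and 5.47-fold below WT. Gm43305 (chr14:54292443-54297456) had 55 counts over the WT group, at 1.02, 1.33 and 1.36 CPM, and 0 counts in all 6 Tg4-42 libraries. Against a floor of 3 counts over the group it was at least 15.5-fold lower with vehicle and at least 17.1-fold lower with caffeine.

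Gm8865 (chr14:54826247-54826676, ENSMUSG00000086420) showed the opposite. This processed pseudogene had 0 counts in all WT libraries and lay at 13.3, 8.73 and 6.99 CPM in Tg4-42 vehicle and 5.15, 5.74 and 7.23 in Tg4-42 caffeine libraries, at least 136-fold and at least 88.3-fold higher. A processed pseudogene can share reads with its parent gene and other copies, so which copy its 346 and 247 counts came from is uncertain.

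**Figure D3:**
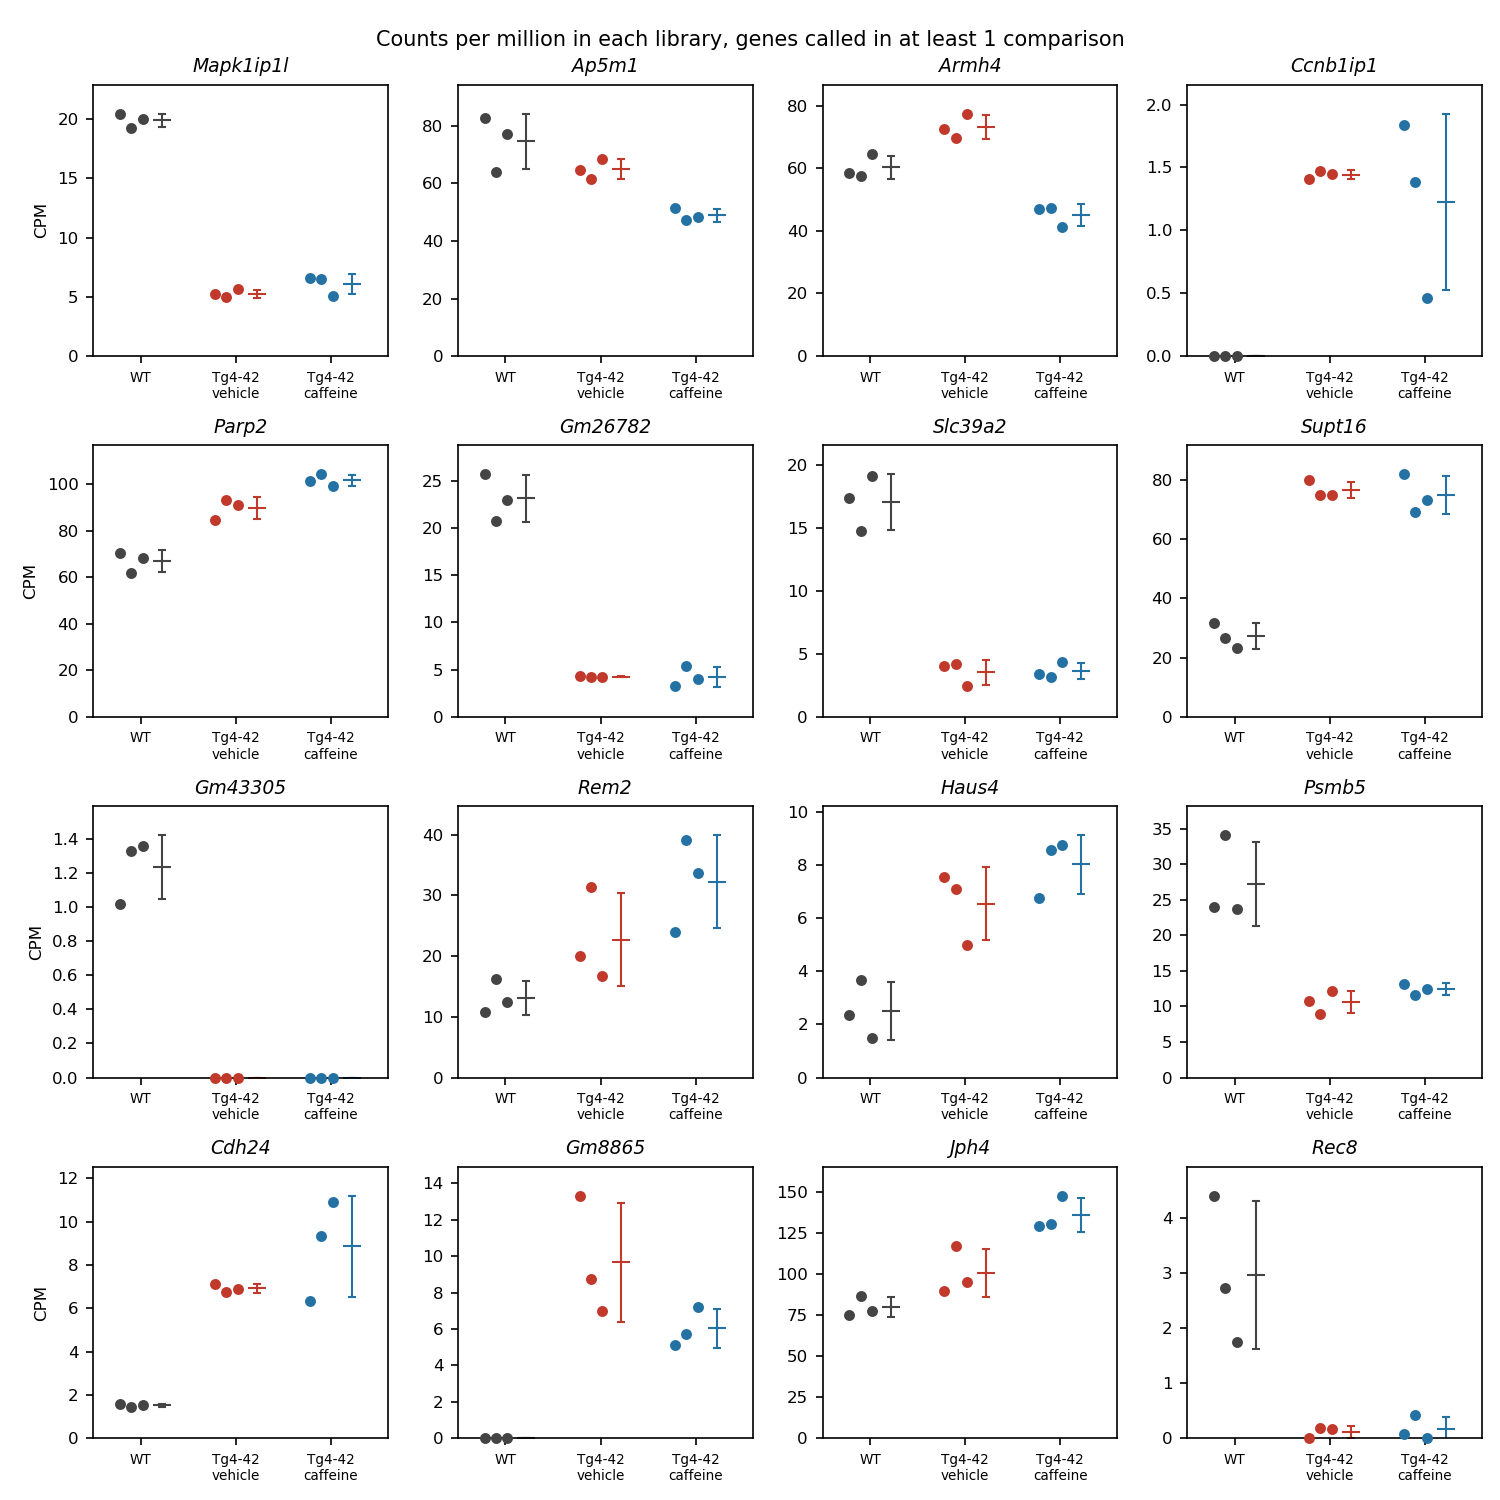
CPM in each of the 9 libraries (points) with the mean and SD of each group (n = 3; bars, cut at 0) for the 16 genes called in at least 1 comparison, on linear axes from 0. In most panels the 6 Tg4-42 libraries stand together and apart from the 3 WT libraries, while in the panel of Armh4 the caffeine libraries, at 41.2 to 47.2 CPM, lie below both other groups.

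Head-to-head arrangement let close neighbours be compared. In 10 pairs, members have starts within 1 kb of each other on opposite strands. Wdhd1 and Socs4, a suppressor of cytokine signalling, start 74 bases apart, within the window printed above for Wdhd1. Wdhd1 lay at 29.5, 30.8 and 25.3 CPM in WT and 19.8, 19.96 and 17.3 in Tg4-42 vehicle libraries, and at 21.5, 17.1 and 24.8 in Tg4-42 caffeine libraries. Socs4 lay at 9.65, 10.8 and 7.31 in WT and 12.01, 11.7 and 13.3 in Tg4-42 vehicle and 11.8, 13.2 and 9.15 in Tg4-42 caffeine libraries. With vehicle the genes of this pair stood on opposite sides of WT, with caffeine Socs4 overlapped WT, and neither was called.

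Ccnb1ip1 and Parp2, 109 bases apart in the Parp2 window above, both stood above WT. Tep1, a protein of telomerase and vault particles, and Gm26782 overlap by 236 bases at their starts, with 144 shared exon bases, and without strand their reads cannot be told apart there. Tep1 lay at 1.65, 1.71 and 1.29 CPM in WT, 3.03, 2.95 and 1.93 in Tg4-42 vehicle and 1.54, 1.73 and 2.46 in Tg4-42 caffeine libraries, so it was above WT with vehicle and overlapped it with caffeine, while Gm26782 was below WT in both. Dad1, a subunit of the oligosaccharyltransferase, and Abhd4, a lipid hydrolase, start 84 bases apart. Abhd4 lay at 22.0, 21.9 and 20.4 CPM in WT, 15.4, 15.6 and 16.5 in Tg4-42 vehicle and 14.1, 14.2 and 12.5 in Tg4-42 caffeine libraries, while Dad1 overlapped in all groups, at 120 to 173, 143 to 180 and 123 to 147 CPM.

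Rab2b and Tox4 overlap by 399 bases at their starts, with 195 shared exon bases, and without strand their reads cannot be told apart there. They were alike in sign (log2 fold changes with vehicle against WT of -0.23 and -0.40), with Tox4 below WT in all Tg4-42 libraries and Rab2b overlapping WT with vehicle. In the other 5 pairs (Exoc5 and Ap5m1, Osgep and Apex1, Acin1 and 1700123O20Rik, Psme2 and Rnf31, Nedd8 and Gmpr2) the vehicle libraries of both genotypes overlapped for both genes. Exoc5 and Ap5m1, Acin1 and 1700123O20Rik, and Nedd8 and Gmpr2 also overlap at their starts and share exon bases. Rab2b, Osgep, Apex1, 1700123O20Rik, Psme2, Mrpl52, Ppp1r3e, Sall2, Tssk4, Peli2 and Cmtm5 among the members, and Otx2, Slc7a7 and Myh6 outside them, are named for their position or their values and were chosen after the values were seen.

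**Figure D4:**
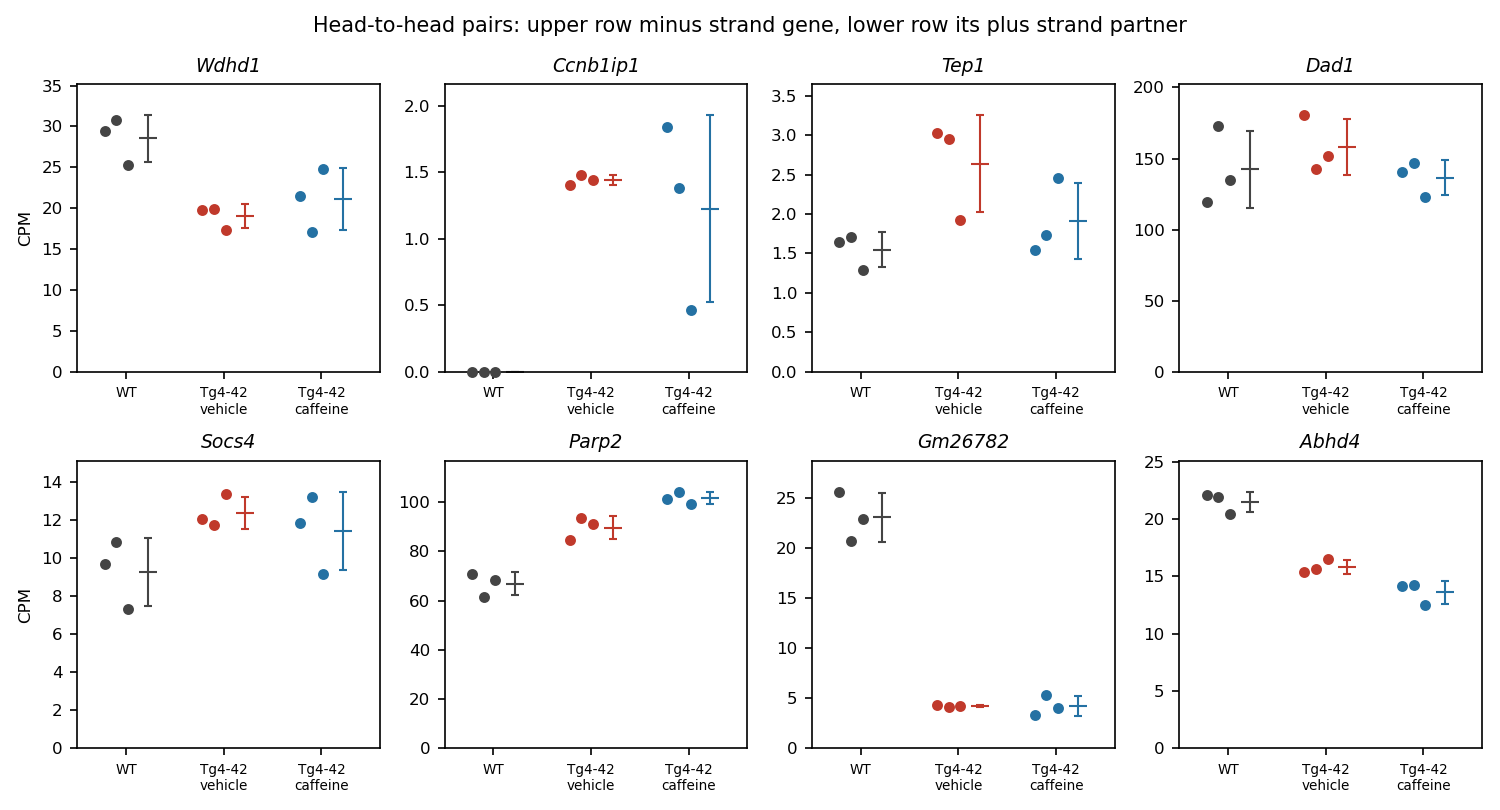
CPM in each library (points), with group mean and SD (n = 3), for 4 head-to-head pairs on linear axes from 0; each minus strand gene is above its plus strand partner. Wdhd1 lies lower and Socs4 higher in Tg4-42 vehicle than in WT libraries, Ccnb1ip1 and Parp2 both lie higher, Tep1 and Gm26782 go opposite ways with vehicle, and Abhd4 lies lower while Dad1 overlaps.

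With long-term caffeine 1 of these genes passed the test. Armh4, a membrane protein gene with an armadillo-like domain (chr14:49675952-49783383, ENSMUSG00000036242), was the only member called in Tg4-42 caffeine against Tg4-42 vehicle libraries, beside 0.881% of all tested genes (0.213% higher and 0.668% lower). It lay at 58.5, 57.7 and 64.7 CPM in WT, 72.5, 69.6 and 77.5 in Tg4-42 vehicle and 46.9, 47.2 and 41.2 in Tg4-42 caffeine libraries. No caffeine library reached a library of the other groups. Armh4 fell by 0.70 ± 0.12 on the log2 scale with caffeine (SE; edgeR adjusted p = 0.033), 1.62-fold. The call was lost with the sequencing lane in the model (edgeR adjusted p = 0.055), and over all settings its adjusted p ran from 3.2e-05 by DESeq2 to 0.25 in edgeR without Tg4-42 caffeine replicate 3. It was also lost without Tg4-42 vehicle replicate 1 (edgeR adjusted p = 0.068) or replicate 3 (0.22), which left no call among the members, as did leaving out Tg4-42 caffeine replicate 3.

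At an unadjusted p under 0.05 there were 15 members, 6 higher with caffeine (Fbxo34, Peli2, Pabpn1, Ap1g2, Jph4 and Psme2) and 9 lower (Ap5m1, Slc35f4, Armh4, Rnase4, Ndrg2, Slc7a8, Gm8865, Cmtm5 and Pck2), which is 16.9% of the members beside 17.0% of all tested genes. In 16 members the 3 caffeine libraries all lay above or all below the 3 vehicle libraries, 8 each way, beside 23.0% of all tested genes (10.4% higher and 12.6% lower). No member differed by 2-fold or more, beside 2.98% of all tested genes. The median absolute log2 fold change was 0.17 over the members and 0.21 over all tested genes.

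**Figure D5:**
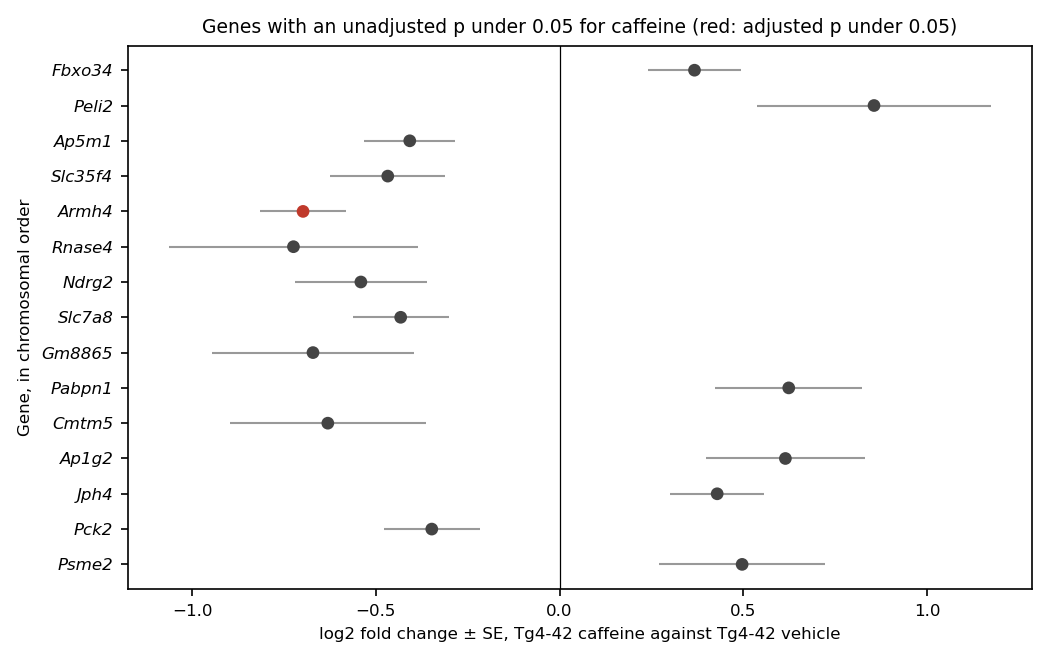
Log2 fold change with its standard error (bars) of Tg4-42 caffeine against Tg4-42 vehicle libraries for the 15 members with an unadjusted p under 0.05, in chromosomal order. Armh4, in red at -0.70, is the only 1 with an adjusted p under 0.05; 6 genes lie right of 0 and 9 left of it.

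Of the 15 genes called against WT, 3 (Ap5m1, Gm8865 and Jph4) had an unadjusted p under 0.05 for caffeine against vehicle. The share over all tested genes was 17.0%, and none of the 15 passed the test. Ap5m1 and Jph4 were among the 15 only through caffeine against WT, which shares the caffeine libraries with this comparison. The edgeR adjusted p ran from 0.11 for Jph4 to 0.99 for Gm26782, leaving out Gm43305, which had no count in either group. The log2 fold change was -0.03 ± 0.13 for Supt16, 0.21 ± 0.19 for Mapk1ip1l, 0.05 ± 0.25 for Slc39a2, 0.23 ± 0.19 for Psmb5, 0.35 ± 0.23 for Cdh24 and -0.01 ± 0.22 for Gm26782 (SE). These p-values do not show that the groups are alike.

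Slc7a8, an amino acid transporter, lay at 111, 97.1 and 117 CPM in Tg4-42 vehicle and 89.5, 70.7 and 80.9 in Tg4-42 caffeine libraries, without overlap (log2 fold change -0.43 ± 0.13, SE; edgeR adjusted p = 0.12). Pabpn1 lay at 151, 243 and 195 CPM with vehicle and 218, 335 and 354 with caffeine, where the lowest caffeine library was within the vehicle range (0.62 ± 0.20, SE; edgeR adjusted p = 0.14, and 0.042 by DESeq2). Ndrg2, a gene also strongly used by astrocytes, lay at 57.3, 71.9 and 91.2 CPM with vehicle and 59.8, 49.1 and 42.8 with caffeine (-0.54 ± 0.18, SE; edgeR adjusted p = 0.14), and the groups overlapped.

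By role, the 18 transport and trafficking members had 4 positive and 14 negative log2 fold changes with caffeine against vehicle and a median of -0.14, the 11 proteasome, ubiquitin and NEDD8 members 8 positive and 3 negative with a median of 0.15, and the 20 chromatin members 12 positive and 8 negative with a median of 0.15, against a median of -0.01 over all tested genes. Among the proteasome genes Psme2, a subunit of the proteasome activator PA28, lay at 6.49, 6.74 and 8.03 CPM with vehicle and 8.31, 10.4 and 11.4 with caffeine (0.50 ± 0.22, SE; edgeR adjusted p = 0.28). Armh4 was the only call of these lists.

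Cell-type markers were also compared between caffeine and vehicle, and only dentate granule cell markers included called genes. All 8 markers of dentate granule cells (Prox1, Dsp, Calb1, Plk5, C1ql2, Stxbp6, Tdo2 and Maml2) had positive log2 fold changes for caffeine against vehicle, 2 of them called. Their sum was 540 to 779 CPM in WT, 462 to 749 in Tg4-42 vehicle and 903 to 1125 in Tg4-42 caffeine libraries. This list holds Dsp and Prox1, which the study named among genes raised by caffeine in these data. It was chosen with earlier results known, so its signs and calls test nothing. The 6 oligodendrocyte markers were all negative and not called, with sums of 362 to 508 CPM in vehicle and 253 to 362 in caffeine libraries, and the 5 astrocyte markers were all negative and not called, with 248 to 365 and 230 to 296 CPM. The 5 microglial markers were all negative and not called, with 24.0 to 31.6 CPM in vehicle and 17.4 to 21.8 in caffeine libraries. Of the 4 markers of CA1 pyramidal neurons (Wfs1, Fibcd1, Pou3f1 and Man1a) 1 was positive and none called, with sums of 334 to 445 and 320 to 344 CPM, and of the 6 neuronal markers 1 was positive and none called. The part of these values in the caffeine values of Armh4, Slc7a8 and Ndrg2 was not tested.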

How the data were processed

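RNA was taken from NeuN-sorted nuclei of frozen hippocampi and made into SMART-Seq v4 and Nextera XT libraries, read as single ends. The authors aligned reads to mm10 with STAR and deposited raw exon counts per Ensembl gene from featureCounts, 1 table per library, with no normalization. Versions, strandedness and the treatment of multi-mapped reads are not given in the sources used here. Positions are those of GENCODE M21, matched for 48349 of 48709 genes. Groups follow the labels, which give the treatment of caffeine libraries; vehicle is from the study's design.

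The counts were tested in edgeR 4.0.16 (R 4.3.3): filterByExpr with a minimum count of 10, TMM scaling, robust quasi-likelihood fits of the 3 groups (6 residual degrees of freedom; biological coefficient of variation 0.163) and Benjamini-Hochberg adjustment at 0.05. DESeq2 1.42.0 was an alternative, with RLE scaling, other filters (no filter, or a mean count of 50 or more), the 2 groups alone, the replicate number or sequencing lane in the model, and each library left out. Replicates 1 and 2 of each group were read on lane 6 and replicate 3 on lane 7. Replicate numbers were given in accession order and only name the libraries. On simulated counts the test made more false calls than its nominal rate in both comparisons with changed genes, so calls near the threshold may be too liberal. Libraries of 1 group differed by more than sampling noise, so each counted once.

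The members, the role lists and the markers were chosen with earlier results of these data known. Named genes were every called member, its tested neighbours, the members and outside genes at the bounds, the 5 highest per kilobase and up to 4 highest per role list.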

Additional observations from a re-analysis of the deposited data

How the results depend on the processing

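In Tg4-42 vehicle against WT, 10 members became 7 to 14 under the other settings, and 7 to 9 with a library left out; 7 genes (Mapk1ip1l, Gm26782, Slc39a2, Supt16, Psmb5, Cdh24 and Gm8865) stayed called in each. In Tg4-42 caffeine against WT, 15 became 26 with no filter on low counts, where 860 of all genes were called against 72, and 7 to 18 with a library left out, the lowest without Tg4-42 caffeine replicate 3 and 9 without WT replicate 2 or 3. Of those 15 calls, 6 (Mapk1ip1l, Gm26782, Slc39a2, Supt16, Cdh24 and Gm8865) held in each, and Ap5m1, Ccnb1ip1, Parp2, Gm43305, Rem2, Haus4, Psmb5, Jph4 and Rec8 were each lost without at least 1 library. In Tg4-42 caffeine against Tg4-42 vehicle, 1 became 3 with DESeq2 (Armh4, Pabpn1 and Jph4), 3 with no filter (Armh4, Ndrg2 and Pabpn1), 2 with the replicate block (Armh4 and Pabpn1), 0 with lane as a covariate and 0 to 2 with a library left out. The cause of these shifts was not tested. In the 0 counts edgeR still gave 10 to 14 members an unadjusted p under 0.05.

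The replicate numbers are names in accession order: same-numbered samples deviated together with correlations of 0.188, 0.138 and 0.156 between WT and Tg4-42 vehicle, but -0.171 for 1 pair between the Tg4-42 groups. With the replicate block, 9 members were called in Tg4-42 vehicle against WT and 16 in Tg4-42 caffeine against WT. Of 26 calls of named genes, 13 held under every alternative and library left out, 4 were lost under an alternative that kept all libraries, and 9 only with a library left out. No value of a called gene reversed; 107 of 2508 alternative values changed sign where neither fit called the gene. DESeq2 gave no adjusted p for 16 values of named genes, which were left out of these counts. The edgeR version 4 quasi-likelihood, chosen after seeing the data, gave 10, 1 and 16 calls. The median log2 fold change of all genes lay between -0.01 and 0.00 in all 3 comparisons with TMM, RLE and DESeq2 scaling. At these depths 3 counts equal 0.19 to 0.325 CPM, depending on the library.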
